A study of Oncorhynchus mykiss with 16 samples.

Results

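Wnt4a is the name of a single probe on the trout oligonucleotide array, 1 of 60195 probes, with 1 spot on each array. The probe was chosen because its day 8 signal stood above that of the other days. Its levels, the height of the day 8 peak and its rank among all probes are therefore given as a description, with no test. What the choice did not use, namely the differences among days 3, 15 and 21 and the differences between cultures, was tested. The values come from 16 one-colour arrays, 1 for each of 4 primary cultures of rainbow trout (Oncorhynchus mykiss) adipocyte precursors at days 3, 8, 15 and 21. Every culture started from cells isolated from the pooled visceral white fat of 6 to 7 fish, so a culture stands for a pool and not for a fish, and n = 4 at each day. Day 3 samples were cells described by the study as mesenchymal stem cells in growth medium, and day 8 samples were confluent cells that had proliferated in the same medium. Day 15 and day 21 samples were collected after the change to a differentiation medium with insulin, dexamethasone, the phosphodiesterase inhibitor IBMX and a lipid mixture, and were described as committed preadipocytes and as mature adipocytes. All groups share the fetal bovine serum medium, and no array holds cells kept in growth medium after day 8, so day and medium cannot be told apart.

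Wnt proteins are secreted ligands that bind Frizzled receptors on the same or neighbouring cells. In the canonical branch they stabilise β-catenin, which enters the nucleus and acts with TCF/LEF factors, and in mammals this branch holds preadipocytes in the undifferentiated state. Wnt4 often signals without β-catenin. In the mouse it is known for its roles in the formation of kidney tubules and of the ovary, and in zebrafish wnt4a takes part in the cell movements that shape the embryo. The RefSeq annotation of the rainbow trout lists 2 wnt4a copies and 1 wnt4b gene, and the files do not say which wnt4a copy the probe measures. A second Wnt probe, named Wnt4b, is also on the array and serves here as the closest comparison.

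Wnt4a was highest at day 8 in each of the 4 cultures. The processed signal at day 8 was 99.7 units in culture 4, 463 in culture 8, 289 in culture 9 and 189 in culture 10. At day 3 it had been 19.0, 29.4, 36.5 and 15.6 units in the same order of cultures. At day 15 it was 21.8, 72.6, 60.8 and 54.7 units, and at day 21 it was 12.7, 44.7, 16.4 and 29.3 units. All 4 day 8 signals lay above all 12 signals of the other days, while the signals of days 3, 15 and 21 overlapped with each other. In bulk RNA, fewer cells that express a gene and less of its RNA per cell cannot be told apart.

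**Figure D1:**
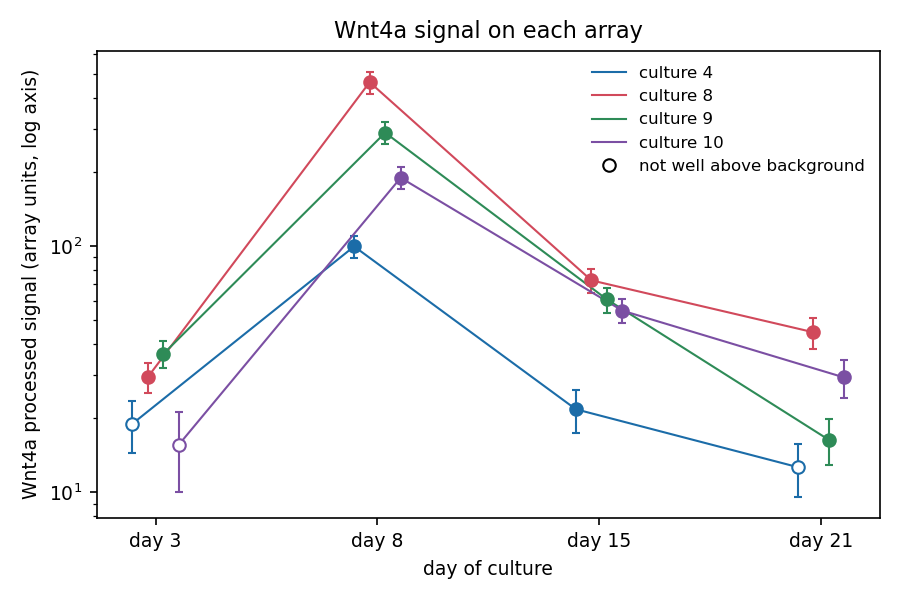
Wnt4a processed signal (array units, log axis) at each day of culture, with 1 line per culture. Bars are the signal error given by Feature Extraction for the spot, and open symbols mark arrays on which the spot was not well above background. The 4 cultures sit between 99.7 and 463 units at day 8 and between 12.7 and 72.6 units at the other days.

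At days 3 and 21 the probe was mostly close to the detection limit, and at day 15 only in culture 4. The spot was well above background on 2 of 4 arrays at day 3, on 4 of 4 at day 8, on 4 of 4 at day 15 and on 3 of 4 at day 21. The arrays below this mark were those of cultures 4 and 10 at day 3 and of culture 4 at day 21. The median spot brightness was 4.84 to 14.4 times the local background at day 8, 1.85 to 2.84 times at day 3 and 1.97 to 4.50 times at day 15. At day 21 it ranged from 0.979 to 2.77 times. The lowest of these ratios belonged to culture 10, where the local background around the spot was 70.5 units and the spot itself 69.0 units, although the spot was marked as well above background with a processed signal of 29.3 units. That array had a median local background of 53.0 units, against 24.5 to 34.0 units on the other arrays, and the part of this background in the day 21 value was not tested. The signal error that Feature Extraction assigns to the spot was 10.0% to 10.3% at day 8, 12.3% to 35.7% at day 3, 10.96% to 19.7% at day 15 and 14.3% to 24.1% at day 21. The dim signals of days 3 and 21 are thus less precise than those of day 8.

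All further levels and differences are log2 signals scaled to the 75th percentile of their own array. On this scale the mean level of Wnt4a was -4.83 ± 0.39 (SD, n = 4) at day 3 and -1.80 ± 0.82 (SD, n = 4) at day 8. It was -3.77 ± 0.79 (SD, n = 4) at day 15 and -4.81 ± 0.80 (SD, n = 4) at day 21. The order of the days was therefore day 8, day 15, day 21 and day 3. The ranges of the neighbours day 15 and day 21 overlapped, with log2 levels of -4.90 to -3.04 and of -5.63 to -4.05, and so did those of day 21 and day 3, which spanned -5.29 to -4.33. The spread between cultures at day 8 was larger than the spot error, which amounted to 0.14 to 0.15 on the log2 scale. At day 3 the spot error of 0.18 to 0.52 was of the size of the spread between cultures.

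The step from day 3 to day 8 can be sized best in cultures 8 and 9, whose spots were well above background on both days. In every culture the day 3 and day 8 arrays lay on different slides, so each ratio also carries any difference between slides. From day 3 to day 8 the level went up 16.6-fold in culture 8 and 6.60-fold in culture 9. The measured ratios were 4.48 in culture 4 and 9.10 in culture 10, but their day 3 spots were not well above background, with spot errors of 23.9% and 35.7%, so these ratios are loose. Between days 8 and 15, across the change to the differentiation medium, the level went down 4.52-fold in culture 4, 4.83-fold in culture 8, 3.93-fold in culture 9 and 2.70-fold in culture 10, with all 8 spots well above background. On the log2 scale, culture 8 had lost 56.0% of its rise by day 15 and 80.8% by day 21, and culture 9 had lost 72.6% and 148%. At day 21, the measured level of culture 9 therefore stood below its own day 3 level and that of culture 8 above it. The day 21 spot of culture 9 was dim, at 1.68 times the local background with a spot error of 21.1%. Its day 21 value is thus loose. No direction between days 3 and 21 can be read for culture 4, with neither spot well above background, nor for culture 10, with a day 3 spot below that mark and the raised background at day 21.

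The difference between day 8 and the mean of the other 3 days was 2.67 on the log2 scale (SD over cultures 0.46, n = 4), a ratio of 6.36. With normexp background correction of the median signals the difference was 1.38, a ratio of 2.61, and within slide 1 it was 1.81, a ratio of 3.51. It was 2.32 in culture 4, 3.20 in culture 8, 2.90 in culture 9 and 2.24 in culture 10. This difference ranked 13 from the top among the 42541 tested probes, those detected on every array of some day. The rank was 128 with normexp, 894 within slide 1, and 32, 27 and 24 without culture 8, 9 or 10. The normexp setting adds an offset of 50 units to every signal, which lowers log2 differences most in dim probes. Within single cultures the rank was 226 in culture 4, 22 in culture 8, 21 in culture 9 and 239 in culture 10. For comparison, the same difference had a median of -0.01 over all these probes, and its 5th and 95th percentiles were -0.62 and 0.78.

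**Figure D2:**
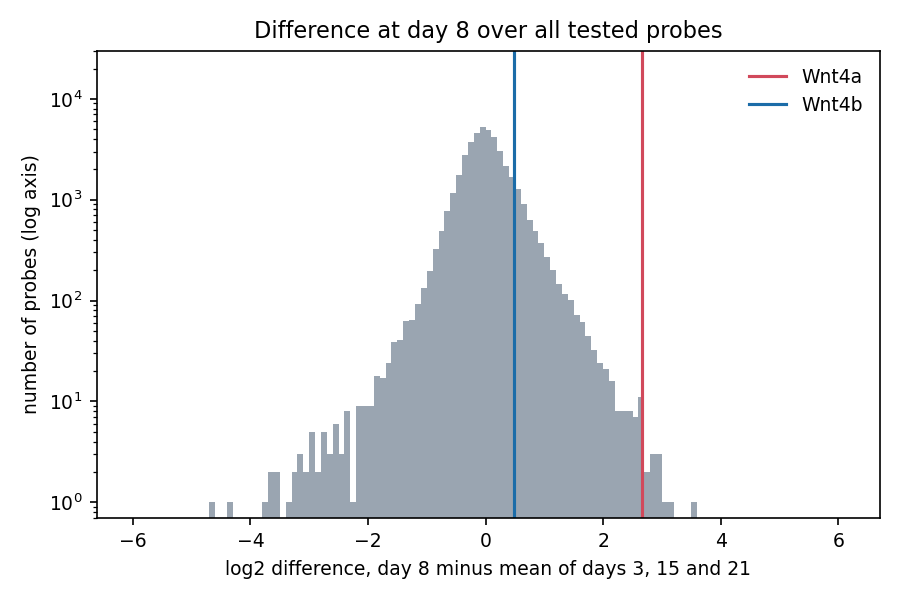
Number of probes (log axis) by the log2 difference between day 8 and the mean of days 3, 15 and 21, in bins 0.1 wide over the 42541 tested probes. The red line marks Wnt4a at 2.67, in the upper tail, and the blue line marks Wnt4b at 0.48.

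A high value of this difference does not by itself describe a peak. Of the 12 probes above Wnt4a, 9 were highest in mean at day 8 and 3 at day 3, and 6 were well above background on all 16 arrays. Over all tested probes, 8803 (20.7%) were highest in mean at day 8 and 1246 (2.93%) were highest at day 8 in each of the 4 cultures. In 296 probes (0.696%) all 4 day 8 arrays lay above all 12 other arrays, and among these Wnt4a ranked 5 by the difference. Only 4 of the 12 probes above Wnt4a had this separation. In Wnt4a the lowest day 8 array, culture 4 at a log2 level of -2.72, lay 0.32 above the highest other array, culture 8 at day 15 with -3.04, a ratio of 1.25.

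The 3 probes just above and the 3 just below Wnt4a in the rank carry only contig or read identifiers. FZ8DYKY01BSPMN.s.om.10, TC113236 and TC99244 had differences of 2.74, 2.72 and 2.68, and TC99154, TC127156 and CU071825.s.om.10 had 2.67, 2.66 and 2.64. Their shapes were not all like that of Wnt4a. TC99244 and CU071825.s.om.10 had mean log2 levels of 4.51 and 5.57 at day 3 against 4.17 and 5.19 at day 8, so they were high from the start and their low days were days 15 and 21. TC113236 and TC127156 were highest at day 8, at -2.24 and 0.19, but their day 3 levels of -3.11 and -0.80 also lay above those of days 15 and 21. FZ8DYKY01BSPMN.s.om.10 and TC99154 had lower levels on both sides of day 8. The former had -6.54, -3.65, -6.38 and -6.26 at days 3, 8, 15 and 21 and was well above background on 6 of 16 arrays, and the latter had -5.06, -3.16, -6.00 and -6.41 and was so on 7 of 16.

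Of the differences between days that the choice did not use, none was called for Wnt4a. Calls required a Benjamini-Hochberg adjusted p below 0.02 in limma over all tested probes and a ratio above 3. Day 15 exceeded day 3 by 1.07 on the log2 scale (SE 0.47, 95% interval 0.07 to 2.07, limma adjusted p = 0.101), in a comparison that called 6.90% of all probes. This fit leaves out that the same cultures were sampled at each day. With culture as a block the interval was 0.29 to 1.84 (limma adjusted p = 0.0319). The difference was positive in 3 of 4 cultures, with 1.78 in culture 8, 1.75 in culture 10, 0.75 in culture 9 and -0.01 in culture 4. The day 3 spots of cultures 4 and 10 were not well above background, so the values of these cultures are loose. The ratio of 2.09 also lay under the required 3. With normexp background correction the difference was 0.46 (95% interval -0.17 to 1.09).

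Day 21 minus day 3 was 0.02 (SE 0.47, 95% interval -0.98 to 1.02, limma adjusted p = 0.978), where 7.91% of all probes were called. The interval leaves room for a change in either direction. With culture as a block the interval was -0.76 to 0.80 (limma adjusted p = 0.968). The cultures were evenly divided, with 0.78 in culture 8 and 1.07 in culture 10 against -0.47 in culture 4 and -1.29 in culture 9. The values of cultures 4 and 10 rest on spots that were not well above background, and that of culture 9 on a dim day 21 spot. The sign of the mean turned when slide was a block, at -0.07, so it carries no direction.

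Between days 15 and 21 the Wnt4a difference was -1.04 (SE 0.47, 95% interval -2.04 to -0.05, unadjusted p = 0.0417 in limma, adjusted p = 1.00). With culture as a block the interval was -1.82 to -0.27 (limma, unadjusted p = 0.0125, adjusted p = 0.632). The difference was not called in either fit. It was negative in 4 of 4 cultures, at -0.46 in culture 4, -1.004 in culture 8, -2.04 in culture 9 and -0.68 in culture 10. The day 21 spot of culture 4 was not well above background, so its value is loose. The value of culture 9 is loose too, since its day 21 spot was dim, with a spot error of 21.1%. Without culture 9 the difference was -0.71 (limma, unadjusted p = 0.237), and without single cultures it ran from -1.24 to -0.71. Of all probes, 0 (0%) were called in this comparison, and 1474 (3.46%) had an unadjusted p below 0.05. Without the array of culture 10 at day 21, which had the raised background, the difference was -1.24 (limma adjusted p = 1.00). With normexp background correction of all arrays it was -0.27 (95% interval -0.91 to 0.36).

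**Figure D3:**
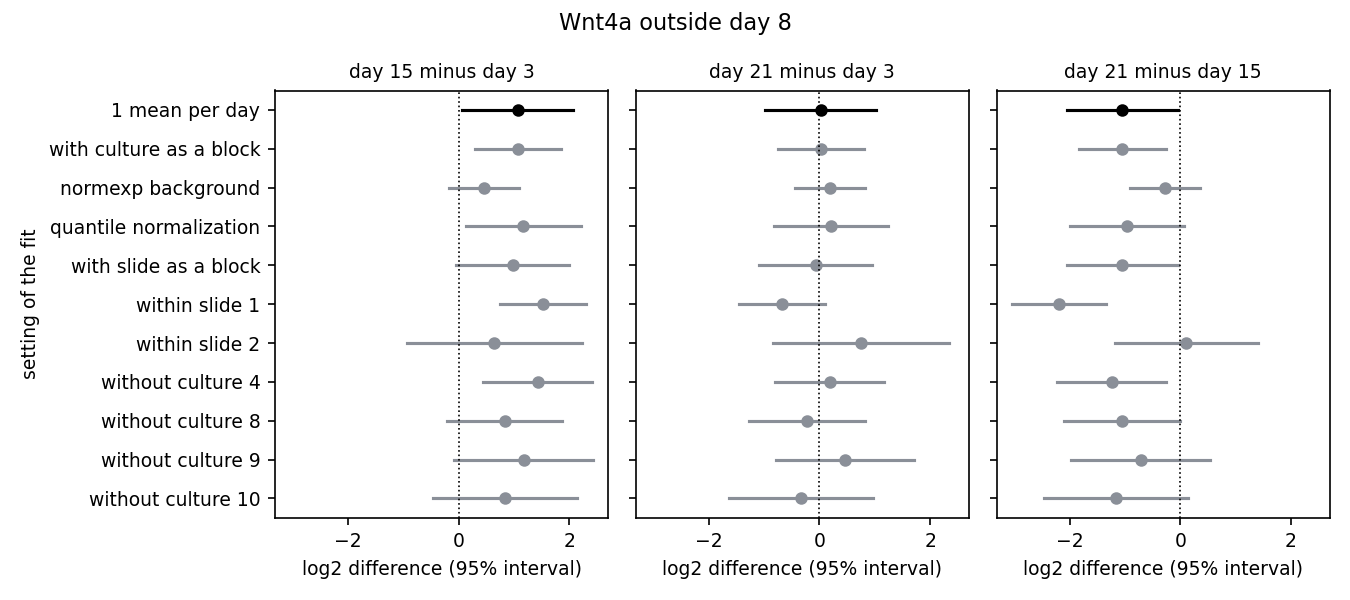
Differences of Wnt4a among days 3, 15 and 21 (log2, points) with 95% intervals (lines), fitted with limma in 11 settings of scaling, background correction, blocking and samples. In black, the fit with 1 mean per day gives 1.07, 0.02 and -1.04. Day 15 minus day 3 is positive in all 11 settings shown, while day 21 minus day 3 lies on either side of 0.

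The 16 arrays lay on 2 slides, and the slides were not balanced over the days on which the peak rests. At day 8 the arrays of cultures 8, 9 and 10 were on slide 2 and that of culture 4 on slide 1, and at day 3 it was the reverse. Days 15 and 21 had 2 arrays on each slide. The day 8 level of culture 4 on slide 1 was -2.72, below the -2.10 to -0.77 of the 3 cultures on slide 2, and culture and slide cannot be told apart at that day. With day in the model, the slide difference of Wnt4a was 0.36 (limma, unadjusted p = 0.321, adjusted p = 1.00), and 1 of all tested probes had an adjusted p below 0.05. The day 8 difference from the other days was 2.55 with slide as a block, 1.81 within slide 1 and 2.92 within slide 2. The rank changed to 28, 894 and 16. Within a slide the days are made up of different cultures, so these values also carry the differences between cultures. Day 21 minus day 15 was -2.20 within slide 1 (limma adjusted p = 0.208) and 0.11 within slide 2 (adjusted p = 0.987), and on neither slide did days 15 and 21 share a culture.

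The position of a culture within a day was partly kept from day to day. Culture 8 was the highest at days 8, 15 and 21, lying 1.03, 0.72 and 0.76 above the day mean on the log2 scale. Culture 4 was the lowest at days 8 and 15, where its deviation from the day mean was -0.92 and -1.13. At day 3 the order was another one, with culture 9 highest at a deviation of 0.50, and at day 21 culture 9 was lowest with -0.82. The test for differences between cultures with day in the model gave F = 4.33 and a limma adjusted p of 0.0942, which did not pass 0.02, while 4595 probes (10.8%) did.

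Wnt4b, the other Wnt4 gene on the array, was also highest in mean at day 8, but by a small margin. Its mean log2 level at days 3, 8, 15 and 21 was -4.33 ± 0.98, -4.22 ± 0.21, -4.61 ± 0.40 and -5.14 ± 0.60 (SD, n = 4 each). The spot was well above background on 3, 4, 4 and 2 of the 4 arrays of these days. The day 8 arrays did not stand above the others. The day of its highest level was day 15 in culture 4, day 3 in cultures 8 and 9 and day 8 in culture 10.

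Wnt4b was not chosen by its values, and its day 8 difference was tested in a comparison added after its levels were known. Day 8 minus the mean of the other days was 0.48 (SE 0.33, limma adjusted p = 0.450), a rank of 5170, where 0.421% of all probes were called. The other differences of Wnt4b were -0.29 between days 15 and 3 (adjusted p = 0.636), -0.82 between days 21 and 3 (adjusted p = 0.133) and -0.53 between days 21 and 15 (adjusted p = 1.00), all from limma. Over the 16 arrays the levels of Wnt4a and Wnt4b had a Pearson correlation of 0.19, and their deviations from the day means had -0.26. These 16 points share 4 cultures and 4 days and are not independent.

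**Figure D4:**
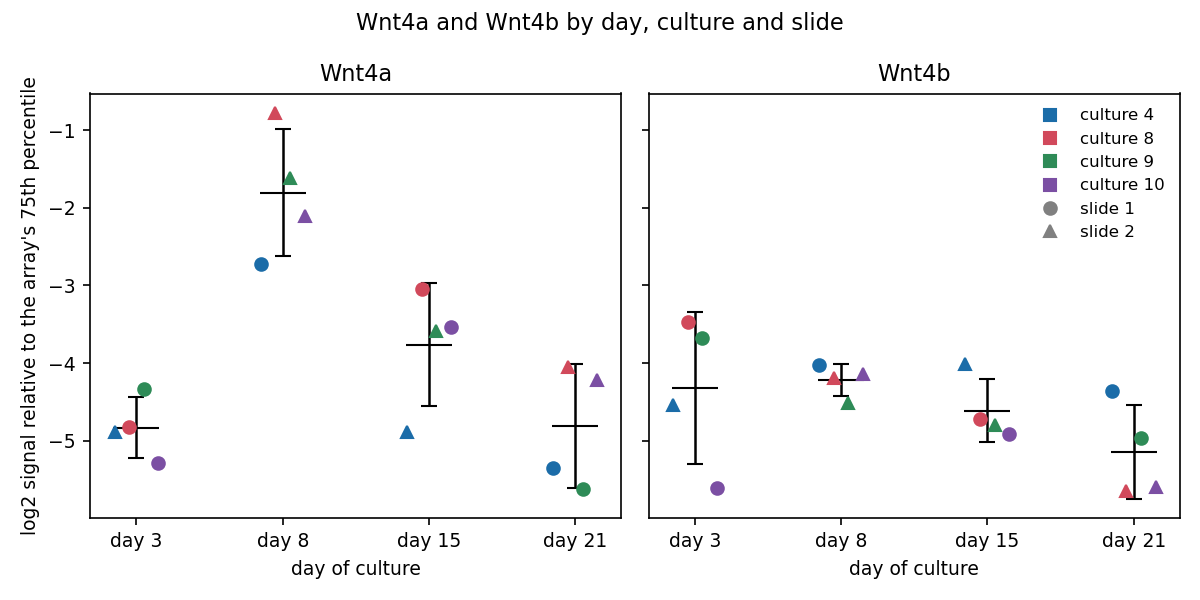
Log2 signal of Wnt4a (left) and Wnt4b (right) relative to the 75th percentile of the array, by day of culture. Colours are cultures, circles and triangles are slides 1 and 2, and bars are the mean ± SD of 4 cultures. Wnt4a has its 4 day 8 arrays at -2.72 to -0.77, above all of its other arrays, while the Wnt4b mean at day 8 of -4.22 lies within the range of its other days.

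No other member of the Wnt pathway could be followed by name. Of 68 Wnt ligands, receptors, cytoplasmic transducers, inhibitors, transcription factors and target genes searched for, 2 were found, Wnt4a and Wnt4b, and 0 of these 2 were called in the 3 comparisons among days 3, 15 and 21, where 6.90%, 7.91% and 0% of all probes were called. With 2 members, this count says nothing about the pathway. Most probes carry a contig or read identifier that the files and the RefSeq table used here do not pair with a gene, and a readable name or matched RefSeq accession was found for 62 of the 60195 probes. The same limit holds for the check of the cell types. Of 32 cell type markers, 3 were found by name. PPARg, the master regulator of adipocyte differentiation in mammals, was well above background on 0 of 16 arrays with its probe. The other adipocyte, mesenchymal, macrophage, endothelial, erythrocyte and cell cycle markers had no probe of that name. The labelled cell states could therefore not be checked from these markers. Other named probes, such as phosphoenolpyruvate and ATP-citrate, were not in the list. The study itself followed the cells by microscopy, qPCR and Western blot, and reports more PPARγ protein from day 8 on.

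The other markers found were 2 of the 4 muscle markers, myod1 and myogenine, both regulators of the myogenic lineage and both well above background on all 16 arrays. The summed level of these muscle markers, as a multiple of the 75th percentile of the array, ranged from 0.273 to 0.556 at day 3, from 0.180 to 1.81 at day 8, from 0.168 to 0.309 at day 15 and from 0.190 to 0.526 at day 21. Within day 8, myod1 spanned log2 levels from -3.90 to 0.76, against -3.20 to -2.63 for myogenine. The sum joins unlike courses. Day 21 minus day 3 was -1.58 for myod1 (limma adjusted p = 0.221) and 0.40 for myogenine (adjusted p = 0.105). Other probes with muscle names, such as myf5, mrf4 and Fast_myosin, were not in the list and did not enter the sum. Over the 16 arrays myod1 had a correlation of 0.12 with Wnt4a. The part of muscle-lineage RNA in the Wnt4a values was not tested.

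The probes whose pattern was most like Wnt4a were sought by Pearson correlation over the 16 arrays. The 10 highest had correlations of 0.90 to 0.94, against a median of -0.00 and a 99th percentile of 0.73 over all tested probes, and 140 probes exceeded 0.8. All 10 carry contig or read identifiers. CU072764.s.om.10 was first with 0.94, followed by TC112920 with 0.93 and TC101697 with 0.92. TC97636 and CU068127.s.om.10 had 0.91, and CA360716.s.om.10, TC118635, TC104463, TC129217 and TC115756 had 0.90. They were detected well above background on each of the 16 arrays. All 10 were highest in mean at day 8 with day 15 second, as was Wnt4a. Over all tested probes 20.7% were highest in mean at day 8. The choice by correlation over the same arrays favours this shape, so it is no separate result. The full order of the days was that of Wnt4a in 6 of the 10.

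The height of the peak, for which Wnt4a was chosen, varied among these probes. The day 8 difference from the mean of the other days was 0.33 to 1.80 in the 10 probes, compared with 2.67 in Wnt4a. With normexp background correction it was 0.25 to 1.61 in the 10 probes and 1.38 in Wnt4a. TC115756, at 1.61, then lay above Wnt4a. The offset of 50 units in this correction shrinks the differences of dim probes most, and Wnt4a was dim outside day 8. The brighter CA360716.s.om.10 had 1.29 without normexp and 1.28 with it. The order of Wnt4a and TC115756 under normexp therefore does not compare like with like. TC115756 had mean log2 levels of -1.51, 0.94, 0.18 and -1.25 at days 3, 8, 15 and 21. It also varied much like Wnt4a within days, with a correlation of 0.84 between its deviations from the day means and those of Wnt4a. In the 10 probes this correlation of deviations ranged from 0.50 to 0.84, so the likeness was not in the day means alone. The 10 probes were picked over the same arrays, which favours such values, and culture and slide are mixed in the deviations. What the shared deviations reflect was not tested.

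**Figure D5:**
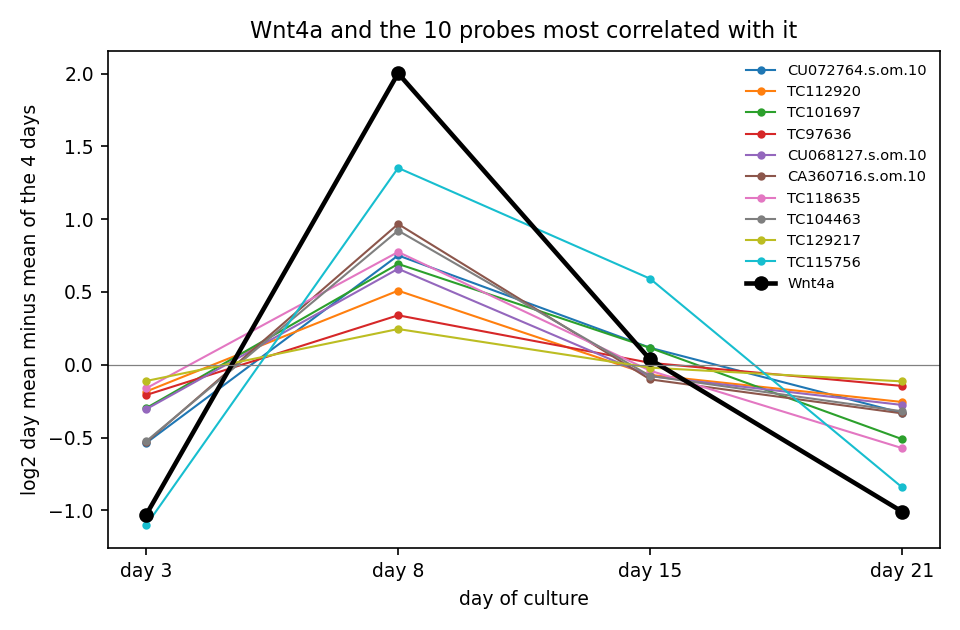
Mean log2 level of Wnt4a (black) and of the 10 probes most correlated with it over 16 arrays (colours) at each day, each probe with the mean of its 4 days subtracted. All 11 profiles are highest at day 8, which the choice of the probes favours. On this scale the day 8 difference of the other probes, 0.33 to 1.80, is below the 2.67 of Wnt4a. With normexp, whose offset shrinks the differences of dim probes most, TC115756 lay above Wnt4a (1.61 against 1.38).

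When only the deviations from the day means were correlated, other probes came first. TC114526, TC104283, TC118749, TC108256 and TC104396 had correlations of deviations of 0.93, 0.92, 0.92, 0.90 and 0.89 with Wnt4a, and 0 of these 5 were among the 10 above. Their day 8 differences from the mean of the other days were small, between -0.11 and 0.46. Within a day they were high and low on much the same arrays as Wnt4a, but they had no comparable peak at day 8. The 5 probes were picked for this correlation over the same arrays, which favours such values. Their day means still differed. TC108256 went from 0.72 at day 3 to 1.42 at day 21, and TC104283 from 3.84 at day 8 to 3.08 at day 21.

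Of the probes with a readable name, 45 besides Wnt4a were tested and 10 had their highest mean at day 8. Over all tested probes the share was 20.7%, so this count is near that of any probes. Their correlation with Wnt4a over the 16 arrays ran from 0.68 downwards. The probe calpain_2, a calcium-dependent protease, had 0.68, the retinoic acid receptor RARa had 0.55, the superoxide dismutase SOD1 had 0.54 and the fatty acid sensor PPARa had 0.37. A probe named Slow had 0.23, a probe named delta had 0.12 and the fatty acid elongase probe Salmo_salar_elov12 had 0.06. The probe with the damaged name scl?raxis had -0.07, and Wnt4b and myod1, described above, had 0.19 and 0.12. The probe calpain_2 had log2 levels of 4.11, 4.84, 4.34 and 4.24 at days 3, 8, 15 and 21. RARa had levels of -4.55, -3.13, -3.90 and -4.03 at days 3, 8, 15 and 21. Its deviations from the day means had a correlation of -0.54 with those of Wnt4a. The likeness thus lay in the day means and not within days. None of the readable probes reached the correlations of the 10 most similar probes.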

How the data were processed

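Cy3-labelled RNA was hybridised to one-colour Agilent trout arrays. The authors extracted each spot's intensity with Feature Extraction 10.7.3.1 (submitters' processing notes), which subtracts background, and deposited it with no normalization across arrays. A log2 table deposited beside it matched the log2 processed signal to within 0.001 of 1 constant per array for 98.4% to 98.5% of probes. That table had a median of 6.77 on every array, so it was scaled across arrays, and the paper states that GeneSpring was used for normalization.

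Control spots were left out, as were outlier spots, of which an array had 6 to 272. Spots of a probe were averaged, and log2 signals were taken relative to each array's 75th percentile, which lay at 518 to 881 units. Of 60195 probes, 1050 lacked a value on an array, and 42541 were tested, each detected (well above background) on the 4 arrays of some day. On an array, 65.5% to 80.5% of spots were well above background and 0 were saturated. The number of arrays limits the precision.

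limma 3.58.1 (R 4.3.3) fitted 1 mean per day over 16 arrays. A probe was called where its ratio exceeded 3 and its p, adjusted by Benjamini-Hochberg, was under 0.02. The study used the same 2 numbers, but for the p of an ANOVA over the days and an average fold change, and states no adjustment. The calls here are therefore not those of the study. Summaries were made with Python 3.11.15, numpy 2.4.6, pandas 2.3.3 and matplotlib 3.10.9. The fits were tested on simulated data. RefSeq names came from the assembly USDA_OmykA_1.1, used for names only.

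The gene, lists and rules were chosen with earlier results of these data known. Named probes are Wnt4a, the 10 and 5 most correlated with it over arrays and in deviations from day means, the 3 rank neighbours on each side, list members found by name, and up to 10 readable names highest at day 8. Wnt pathway genes and cell type markers were searched by name. Samples of a culture come from 1 pool of fish, so culture numbers pair the samples. Of 24 same-culture correlations of deviations, 20 exceeded 0.1 (range -0.14 to 0.70, mean 0.37). The likeness was weaker for day 3, with a mean of 0.18 between days 3 and 8 against 0.60 between days 15 and 21. In culture 10, day 3 had correlations of -0.14, 0.04 and 0.09 with days 8, 15 and 21.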

Additional observations from a re-analysis of the deposited data

How the results depend on the processing

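Neither the tested differences of Wnt4a (among days 3, 15 and 21 and between cultures) nor those of Wnt4b between days were called in any alternative run, 17 for each difference between days and 12 between cultures. The day 8 difference of Wnt4a carries no test. Day 15 minus day 3 of Wnt4a stayed positive, at 0.46 to 1.52 (limma adjusted p 0.0319 to 0.643), and with culture as a replicate block its adjusted p was 0.0319 (SE 0.36). The block changed no call of Wnt4a or Wnt4b. Over all probes the calls rose from 2936 to 3449 for day 15 against day 3 and from 3367 to 3845 for day 21 against day 3. Day 21 minus day 3 turned sign with the percentile taken only over probes detected on every array (-0.0107), slide as a block (-0.0696), within slide 1 (-0.68) and without the day 21 array of culture 10 (-0.18), and ran from -0.33 to 0.46 when single cultures were left out. Day 21 minus day 15 was 0.11 within slide 2. The within-slide fits, the fit without that array and the day 8 test of Wnt4b were added after seeing the data. For Wnt4b, day 15 minus day 3 was 0.13 within slide 2 and -0.62 to 0.0324 without single cultures, day 21 minus day 15 was 0.0776 with normexp and 0.15 within slide 1, and the day 8 difference was -0.0889 with normexp. The cause was not tested.

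The day 8 difference of Wnt4a was positive in all 17 alternatives. It fell to 1.38 with normexp background correction, which was run on the median signal in place of the processed signal and adds an offset of 50 units to every signal, and to 1.81 within slide 1, and was 2.49 to 2.81 without single cultures. Its rank was 128 with normexp, 22 with quantile normalization, 7 among 35805 probes (the 35803 detected on every array, with Wnt4a and Wnt4b added), 28 with slide as a block, 894 within slide 1 and 11 to 32 without single cultures. The day 15 against day 3 calls numbered 1561 with normexp, 1145 within slide 1, 60 within slide 2 and 1900 to 3128 without single cultures, against 2936. The day 21 against day 3 calls numbered 1692 with normexp, 166 within slide 2 and 2389 to 3663 without single cultures, against 3367. Day 21 against day 15 gave 0 calls in all 17. The adjusted p between cultures ran from 0.0465 to 0.434. The day 3 level was -4.40 from the raw median signal minus local background. Spearman correlation shared 5 of the 10 most similar probes. The signal near background limits the values of days 3 and 21.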

Other observations

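Dixon's ratio of the gap at the end of the range to the whole range was computed in 14 groups of 4 cultures. It passed the 95% critical value in 0 of them, and the highest ratio was 0.779.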
